A study of Mus musculus with 2 samples.

Results

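The 8 genes described here encode transcription factors of the sympathoadrenal lineage: the homeodomain protein Phox2a, the basic helix-loop-helix proteins Hand1 and Hand2, the zinc-finger proteins Gata2, Gata3 and Insm1, the LIM-homeodomain protein Isl1 and the AP-2 family protein Tfap2b. They were chosen by name, as known factors of this lineage, and found through the Ensembl identifiers paired with those names. They are 8 of 43346 Ensembl genes in the deposited tables, with 24 annotated transcripts among them. The tissue was adult female C57BL/6J adrenal gland of 10 weeks, and the labels give no treatment, altered allele or number of animals. PolyA RNA sequencing gave 2 libraries, replicate 1 and replicate 2, both technical replicates of 1 biological sample, with replicate 2 made later. There is no second group, so each test below compares 2 libraries of 1 sample, and its p-value reflects counting error and nothing about spread between animals.

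The sympathoadrenal lineage arises from the neural crest and gives rise to the chromaffin cells of the adrenal medulla and to sympathetic neurons. In the embryo, Phox2a, Hand2, Gata2, Gata3, Insm1, Isl1 and AP-2 proteins act in a network that turns on the genes of catecholamine synthesis, storage and release. Several of these factors also work outside the lineage: Gata3 in T cells, Gata2 in mast cells and endothelium, Hand1 and Hand2 in the heart, Isl1 in pancreatic islets and motor neurons, and Tfap2b in the kidney. In bulk tissue such as this, fewer cells of a type and less RNA per cell cannot be told apart.

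The tissue label was checked against marker genes. Adrenal cortex markers summed to 7308 TPM in replicate 1 and 35944 TPM in replicate 2, and all 8 of them reached 1 TPM in both libraries. TPM is a level per transcript length, scaled so that all genes of a library add up to the same fixed total. Of 14 chromaffin effector genes, 12 reached 1 TPM in both libraries. The libraries stood apart from each other. Mitochondrial genes took 54.7% of TPM in replicate 1 and 21.6% in replicate 2, and 15 nuclear copies of these genes took a further 27.8% and 16.7%. The libraries held 28267651 and 17376660 expected counts. The log2 ratio of replicate 2 to replicate 1 climbed with GC content, from a median of -2.14 in genes under 40% GC to 4.99 in genes of 60% GC or more, over 14274 genes with a known GC content. The difference of each member is given below with and without that trend.

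Promoter windows of 250 bases are shown, taken from RefSeq on GRCm38.p6 and ending 1 base before the annotated start. The first is that of Phox2a, the member with the largest ratio between the libraries. The second is that of Hand2, the member with the highest TPM in both. The third is that of the upstream start of Gata2, whose 2 transcripts shared its signal unequally between the libraries. Each is written 5′ to 3′ on the gene's own strand. Capitals mark matches on either strand to CANNTG, the E-box bound by basic helix-loop-helix proteins, to AGATAA, a form of the site bound by GATA proteins, and to GGGCGG, the GC box. The windows are chr7:101818063-101818312 (plus strand), chr8:57320733-57320982 (plus strand) and chr6:88193641-88193890 (plus strand).
Phox2a: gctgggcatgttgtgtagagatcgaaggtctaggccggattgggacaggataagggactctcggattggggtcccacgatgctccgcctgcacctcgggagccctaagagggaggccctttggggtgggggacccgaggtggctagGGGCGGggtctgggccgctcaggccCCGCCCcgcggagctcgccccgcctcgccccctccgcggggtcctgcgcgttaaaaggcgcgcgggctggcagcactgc
Hand2: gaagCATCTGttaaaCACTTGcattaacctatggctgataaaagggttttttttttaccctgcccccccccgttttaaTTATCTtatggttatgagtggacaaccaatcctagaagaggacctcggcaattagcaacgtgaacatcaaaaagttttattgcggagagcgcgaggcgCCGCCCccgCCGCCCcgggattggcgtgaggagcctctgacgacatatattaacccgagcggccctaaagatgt
Gata2, upstream start: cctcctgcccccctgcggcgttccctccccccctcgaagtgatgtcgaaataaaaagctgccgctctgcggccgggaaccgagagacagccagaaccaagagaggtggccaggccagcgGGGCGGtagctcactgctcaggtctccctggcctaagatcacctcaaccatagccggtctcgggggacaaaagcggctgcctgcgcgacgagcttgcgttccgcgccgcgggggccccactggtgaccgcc

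Of the 8 members, 6 had an entry in the RefSeq promoter table, Gata2 with 2 starts, and the windows fell in different classes of base composition. The Phox2a window was 70.4% GC with 22 CpG dinucleotides, the upstream Gata2 window 67.2% with 22, the Gata3 window 70% with 19, and the Isl1 window 71.2% with 33. The window of the downstream Gata2 start was 74% GC with 24. That RefSeq start lies 330 bases downstream of the start of the downstream Gata2 transcript in GENCODE M21. In that annotation the window thus lies inside the transcript and does not describe the promoter before it. The Hand2 window was 49.2% GC with 15 CpG, and the Tfap2b window 46.4% with 5. That Tfap2b window lies 3140 bases downstream of the start of the transcript with most of its TPM (94.2% and 88.0%), so it does not describe the promoter of that transcript. Over 32851 windows of the same length the median was 52.4% GC and 6 CpG. The Hand2 window held 2 E-boxes, 1 AGATAA and 2 GC boxes, and also 1 match to TAATTA, a homeodomain core that overlaps the AGATAA match. At least 1 E-box was present in 66.2% of all windows, AGATAA in 9.99%, TAATTA in 4.84% and a GC box in 32.7%. The Phox2a window held 2 GC boxes and the upstream Gata2 window 1, with no match to the other 3 motifs in either. These matches describe letters in the windows and were not set against any binding data.

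All 8 factors were detected in the gland, at low levels. In replicate 2 all 8 reached 1 TPM, and in replicate 1 this held for 6, with Phox2a and Hand1 below it. Thus 6 of 8 reached 1 TPM in both libraries, beside 21.0% of all Ensembl genes. That background includes noncoding genes and genes without counts, whereas all 8 members are protein-coding and had counts in both libraries. Summed over the 8, the level was 14.65 TPM in replicate 1 and 69.34 TPM in replicate 2, and the highest member stood 13.3-fold above the lowest in replicate 1 and 8.99-fold in replicate 2.

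**Figure D1:**
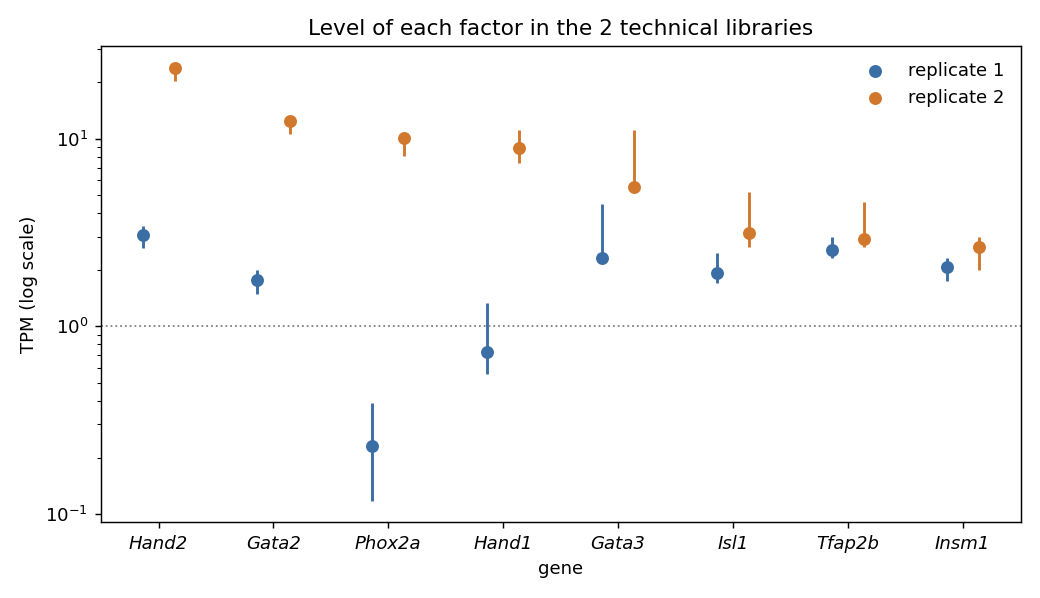
TPM of each of the 8 factors on a log axis in replicate 1 (blue) and replicate 2 (orange), with vertical lines for the interval in the authors' deposited tables and a dotted line at 1 TPM. Hand2 was highest in both libraries (3.07 and 23.74 TPM), and only Phox2a and Hand1 in replicate 1 lay under 1 TPM.

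By TPM, Hand2 was the most abundant of the 8 in both libraries, and below it the order changed. In replicate 1 Hand2 was followed by Tfap2b, Gata3, Insm1, Isl1, Gata2, Hand1 and Phox2a. The authors' deposited intervals, whose level is not given in the sources used here, overlapped for most neighbours in that order, and were separate only between Gata3 and Insm1, Gata2 and Hand1, and Hand1 and Phox2a. In replicate 2 Hand2 was followed by Gata2, Phox2a, Hand1, Gata3, Isl1, Tfap2b and Insm1, with separate intervals only between Hand2 and Gata2 and between Gata3 and Isl1. Phox2a moved from the last place to the third, and Tfap2b from the second to the seventh. These intervals belong to a posterior mean, which differs from the TPM. For Gata3 the interval of 2.34 to 4.47 in replicate 1 lay wholly above the TPM of 2.30.

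Counts were compared after TMM scaling, which sets the 2 libraries to a common level from the bulk of genes. A gene was called when its adjusted p was under 0.05 (exact binomial test, Benjamini-Hochberg over the 14358 genes that had 20 or more counts in the libraries together) and its fold at least 2. All 8 members passed that count minimum. Phox2a, Hand1 and Hand2 were higher in replicate 2, Insm1, Isl1 and Tfap2b were lower, and Gata2 and Gata3 were not called. Over all genes tested, 36.5% were called higher and 27.8% lower, so 3 of 8 in each direction is near the background. The members' median log2 ratio was 0.21, beside 0.10 over all genes. With the GC trend removed, 0 members were higher and 7 were lower, with a median of -1.92 beside -0.03 over all genes, and of all genes 1906 were then higher and 1807 lower of 14274. Scaling by total counts gave 4 members higher and 0 lower, and changed the split over all genes from 5236 higher and 3990 lower to 7776 and 569, since it moved the median log2 ratio of all genes from 0.10 to 1.24.

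**Figure D2:**
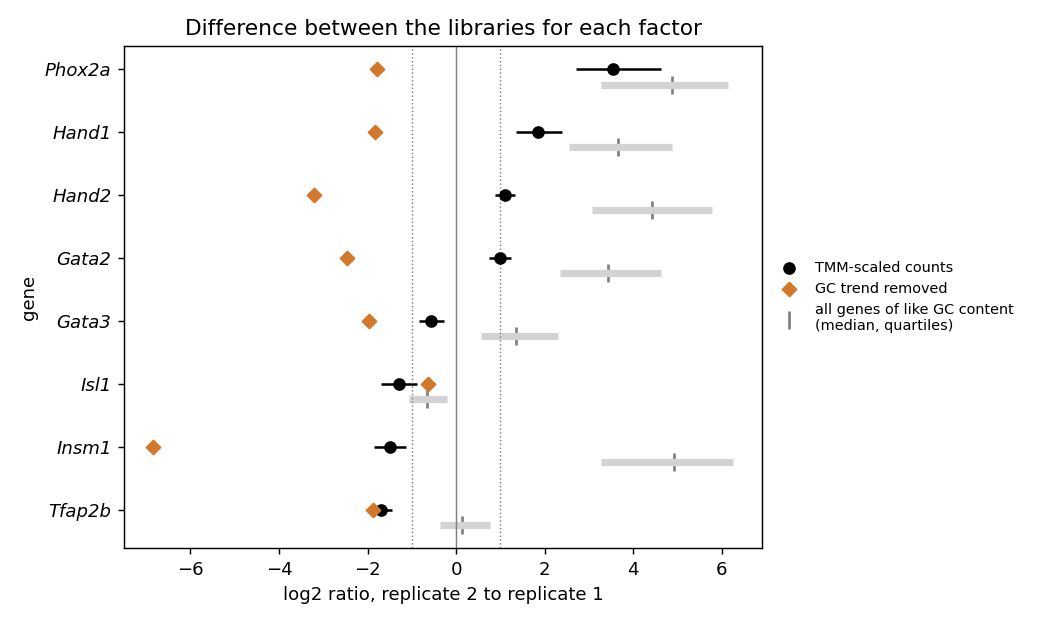
Log2 ratio of replicate 2 to replicate 1 for each factor: TMM-scaled counts (black, with the 95% exact interval), the same with the GC trend removed (orange diamonds), and the median and quartiles of all genes within 1 percentage point of its GC content (grey). Dotted lines mark a 2-fold difference. Every black point except Isl1 and Tfap2b lay well above its diamond, and every factor lay below the median of genes of its GC content.

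Phox2a is a paired-like homeodomain factor that activates the dopamine beta-hydroxylase gene. It lies at chr7:101818313-101822726 (plus strand, GRCm38) and has 1 annotated transcript of 3 exons. It had 11 counts (0.23 TPM) in replicate 1 and 179 counts (10.11 TPM) in replicate 2, a mean of 5.17 ± 6.99 TPM (SD, n = 2 technical libraries). Nearly all of its signal thus came from replicate 2, where it ranked among the upper members. Its scaled counts were 12.1-fold higher in replicate 2 (95% exact interval 6.57 to 24.6, adjusted p = 5.9e-30, exact binomial test), the largest ratio among the 8. At 61.9% GC, Phox2a was one of the most GC-rich members, and 191 genes of like GC content had a median log2 ratio of 4.89 against its 3.53. Without the GC trend its log2 ratio turned to -1.79 and was called lower. The 3′ end of Phox2a overlaps Inppl1 on the opposite strand over 95 bases. Inppl1 had 237 and 1685 counts, and whether the counting used strand is not given in the sources used here.

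Hand2 drives expansion and noradrenergic differentiation of sympathetic precursors. It lies at chr8:57320983-57324633 (plus strand) with 1 annotated transcript of 2 exons. It had 209 counts (3.07 TPM) in replicate 1 and 606 counts (23.74 TPM) in replicate 2, a mean of 13.4 ± 14.6 TPM (SD, n = 2). Both TPM values were the highest among the 8. Scaled counts were 2.15-fold higher in replicate 2 (95% exact interval 1.83 to 2.52, adjusted p = 2.46e-23, exact binomial test). This call rested just above the 2-fold minimum, and removing the trend with transcript length ended it, at a log2 ratio of 0.53. With the GC trend removed Hand2, at 59.3% GC, was called lower with a log2 ratio of -3.21, and of 720 genes of like GC content only 3.89% had a lower ratio.

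Hand2os1, a noncoding gene on the opposite strand, shares 3251 bases of its span with Hand2. It had 132 counts (7.68 TPM) in replicate 1 and 148 counts (23.74 TPM) in replicate 2. Counts of the pair cannot be told apart where they overlap unless strand was used.

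Hand1, the close relative of Hand2, is better known from heart and placenta. It lies at chr11:57828705-57832818 (minus strand) with 3 annotated transcripts. It had 39 counts (0.73 TPM) in replicate 1 and 191 counts (8.93 TPM) in replicate 2, a mean of 4.83 ± 5.80 TPM (SD, n = 2). It was thus under 1 TPM in the first library and the fourth member in the second. Scaled counts were 3.63-fold higher in replicate 2 (95% exact interval 2.56 to 5.26, adjusted p = 2.49e-16, exact binomial test), and without the GC trend the ratio turned to -1.83 (log2) and was called lower. Hand2 stood above Hand1 in both libraries, with a TPM ratio of 4.21 (95% exact interval 2.998 to 6.13) in replicate 1 and 2.66 (2.26 to 3.15) in replicate 2.

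The transcript of Hand1 that carried the signal differed completely between the libraries. In replicate 1 all 39 counts were assigned to ENSMUST00000160392, a transcript of 3 exons, and 0 to ENSMUST00000036917, a transcript of 2 exons. In replicate 2 all 191 counts were assigned to ENSMUST00000036917 and 0 to ENSMUST00000160392. These 2 transcripts share 1713 bases. Only 93 bases are found in the first alone, 91 of them in its first exon, and 191 in the second alone, which starts 671 bases downstream. The deposited upper bound for the transcript listed at 0 was 0.388 TPM in replicate 1 and 1.48 TPM in replicate 2. Against those bounds the assigned transcripts had intervals of 0.273 to 0.917 TPM and 6.46 to 9.30 TPM, so the intervals overlapped in replicate 1 and not in replicate 2.

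**Figure D3:**
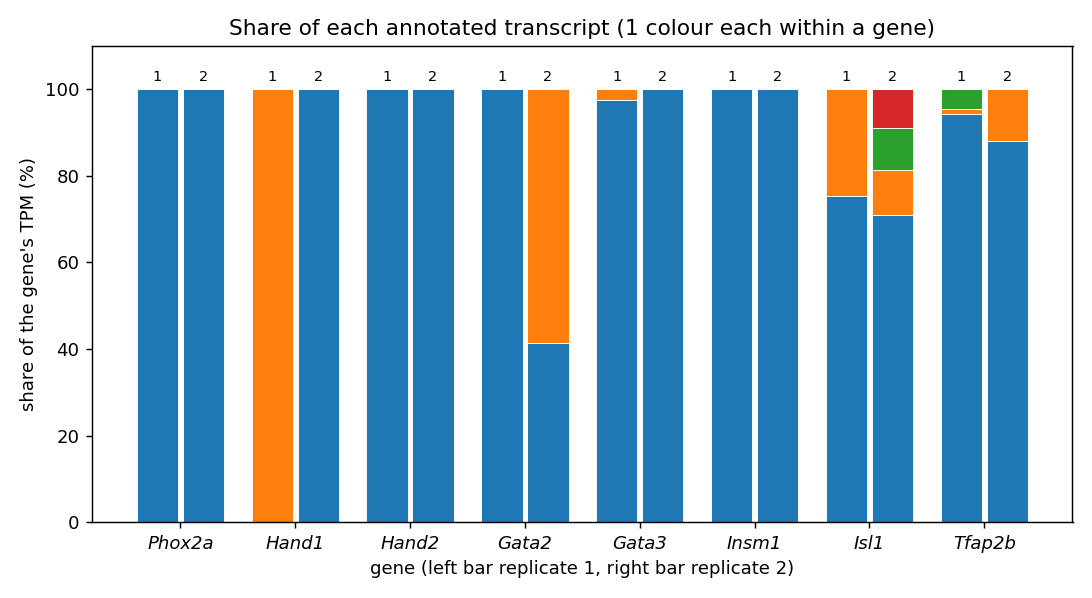
Share of each annotated transcript in the TPM of its gene, in percent, from the authors' deposited transcript tables, with replicate 1 on the left and replicate 2 on the right for each factor and 1 colour per transcript within a gene. Hand1 changed from 1 transcript to another, Gata2 from 1 transcript to a mixture, and the other 6 kept the same leading transcript.

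Gata2 and Gata3 are paralogous zinc-finger factors, and Gata3 is required for chromaffin cells and for tyrosine hydroxylase expression in the sympathetic system. Gata2 lies at chr6:88193891-88207032 (plus strand). It had 173 counts (1.77 TPM) in replicate 1 and 463 counts (12.34 TPM) in replicate 2, a mean of 7.06 ± 7.47 TPM (SD, n = 2). Gata2 was the sixth member in replicate 1 and the second in replicate 2. Its scaled counts were 1.98-fold higher in replicate 2 (95% exact interval 1.66 to 2.37, adjusted p = 2.1e-15, exact binomial test), which missed the 2-fold minimum. With no minimum on counts the refitted scaling brought it past that line, at a log2 ratio of 1.04, and with the GC trend removed it was called lower, at -2.46.

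Gata3 lies at chr2:9857078-9890034 (minus strand). It had 227 counts (2.30 TPM) in replicate 1 and 208 counts (5.51 TPM) in replicate 2, a mean of 3.91 ± 2.27 TPM (SD, n = 2). Its scaled counts in replicate 2 were 0.679 of those in replicate 1 (95% exact interval 0.559 to 0.823, adjusted p = 7.24e-05, exact binomial test), short of a 2-fold difference. Scaling by total counts turned this log2 ratio from -0.56 to 0.58, and with the GC trend removed Gata3 was called lower, at -1.96. When the GC content of the transcripts in use was taken instead, it was -0.77 and not called. Of the 5 genes found to overlap a member, 3 lie over Gata3, and all 3 had 0 counts in both libraries.

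By TPM, the balance of the GATA pair was opposite in the libraries. The TPM ratio of Gata2 to Gata3 was 0.770 (95% exact interval 0.626 to 0.940) in replicate 1 and 2.24 (1.90 to 2.65) in replicate 2. Neither interval, which covers counting error only, reached 1, so by TPM the more abundant of the 2 depended on the library. Posterior means of Gata2 and Gata3 ran the same way, at 1.73 and 3.28 in replicate 1 and 11.55 and 8.02 in replicate 2. Their deposited intervals were separate in replicate 1 (1.48 to 1.99 and 2.34 to 4.47). In replicate 2 they overlapped (10.6 to 12.7 and 5.52 to 11.1). Over all annotated transcripts, Gata2 is 57.2% GC and Gata3 53.0%, and for the transcripts in use 57.1% and 49.8%. The part of this difference in the reversal was not tested.

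The annotated starts of Gata2 also shared its signal unequally. In replicate 1 all 173 counts were assigned to ENSMUST00000170089, whose start follows the upstream promoter window printed above. In replicate 2 this transcript took 41.3% of the TPM of Gata2 and ENSMUST00000015197, which starts 4443 bases downstream, took 58.7%. The downstream transcript thus went from 0 to 276 counts. Its deposited interval in replicate 2, 3.69 to 9.11 TPM, overlapped that of the upstream transcript, 2.36 to 7.87 TPM. In replicate 1 its upper bound was 0.803 TPM, just under the upstream interval of 0.826 to 1.91 TPM. The 2 transcripts share 3023 bases, with only 112 bases found in the upstream one alone and 548 in the downstream one alone. The length of the downstream transcript in the deposited tables, 3241 bases, differs from that in the GENCODE M21 annotation used for coordinates, 3571 bases. The distance of 4443 bases and the 548 bases are those of M21. For Gata3 a single transcript, ENSMUST00000102976, took 97.6% and 100% of the TPM.

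Insm1 is a zinc-finger repressor with a SNAG domain that is required for chromaffin cell differentiation and for many endocrine cells. It lies at chr2:146221921-146225020 (plus strand) as 1 transcript of a single exon. It had 201 counts (2.08 TPM) in replicate 1 and 96 counts (2.64 TPM) in replicate 2, a mean of 2.36 ± 0.396 TPM (SD, n = 2). Its counts were lower in replicate 2 while its TPM was slightly higher, and TPM is a share of a pool that mitochondrial genes filled to different degrees. Scaled counts were 2.83-fold lower in replicate 2 (95% exact interval 2.21 to 3.64, adjusted p = 6.27e-18, exact binomial test).

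Insm1 stood furthest from genes of its own base composition. At 62.0% GC it was the most GC-rich of the 8, and 193 genes of like GC content had a median log2 ratio of 4.93 with quartiles of 3.26 and 6.25. Only 0.518% of them had a lower ratio than Insm1, whose log2 ratio was -1.50. Phox2a, with nearly the same GC content, had 3.53. Without the GC trend the value for Insm1 was -6.84, the lowest of the 8.

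**Figure D4:**
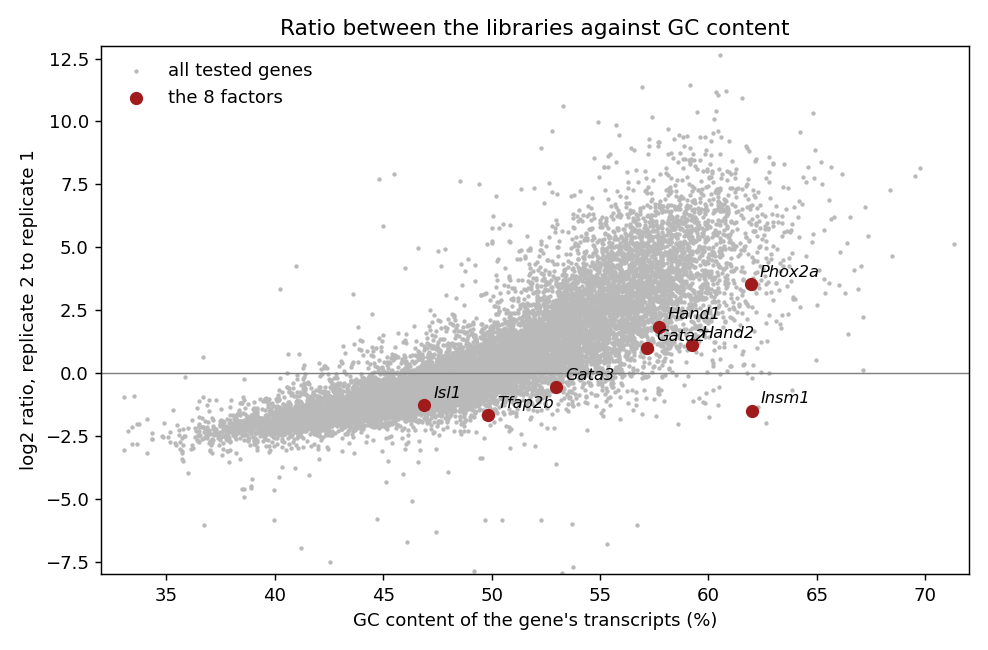
Log2 ratio of replicate 2 to replicate 1 against the GC content of the transcripts of each gene, for the tested genes with a known GC content (grey, 9 of 14274 outside the axes) and the 8 factors (red). The grey cloud climbs with GC content, the factors lie in its lower part, and Insm1 lies far below it at 62.0% GC.

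Isl1, a LIM-homeodomain factor needed for sympathetic neuron survival and for the noradrenergic program, lies at chr13:116298281-116309689 (minus strand). It had 139 counts (1.93 TPM) in replicate 1 and 77 counts (3.14 TPM) in replicate 2, a mean of 2.54 ± 0.856 TPM (SD, n = 2). Scaled counts were 2.44-fold lower in replicate 2 (95% exact interval 1.83 to 3.26, adjusted p = 2.07e-10, exact binomial test). Isl1 had the lowest GC content of the 8, 46.9%, and genes of like GC content had a median log2 ratio of -0.66 against its -1.28. With the GC trend removed it was the 1 member that was not called, at a log2 ratio of -0.64 (adjusted p = 0.00316, exact binomial test). When the GC content of the transcripts in use was taken instead, the log2 ratio of Isl1 was -0.30 (adjusted p = 0.204, exact binomial test). Of its TPM, ENSMUST00000036060, the transcript of 6 exons, took 75.4% in replicate 1 and 71.0% in replicate 2. A retained-intron transcript, ENSMUST00000177469, took 24.6% and 10.3%, from 26 and 7 counts.

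Tfap2b, an AP-2 family factor of sympathetic and chromaffin precursors, lies at chr1:19208914-19238576 (plus strand). It had 454 counts (2.54 TPM) in replicate 1 and 190 counts (2.93 TPM) in replicate 2, a mean of 2.74 ± 0.276 TPM (SD, n = 2). In replicate 1 it had more counts than any other member, although Hand2 had the higher level per length. Scaled counts were 3.23-fold lower in replicate 2 (95% exact interval 2.72 to 3.84, adjusted p = 5.48e-46, exact binomial test). This call held with the GC trend removed, at a log2 ratio of -1.88, since genes of like GC content (49.8%) had a median of 0.13. Only 1.23% of 1548 such genes had a lower ratio. The 49.8% covers all annotated transcripts, and the transcripts in use are 46.9% GC. When their GC content was taken instead, Tfap2b was still called lower, at -1.07, just past the 2-fold minimum. The long transcript ENSMUST00000027059 took 94.2% of its TPM in replicate 1 and 88.0% in replicate 2. ENSMUST00000064976, which starts 3140 bases downstream at the start listed by RefSeq, took 1.24% and 12.0%, from 2 and 8 counts.

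TPM was higher in replicate 2 than in replicate 1 for all 8 members, and this order depended on the pool that TPM is a share of. Rescaled over genes outside the mitochondrial genome and without its nuclear copies, TPM was higher in replicate 2 for the 4 members Phox2a (1.31 and 16.4), Hand1 (4.17 and 14.5), Hand2 (17.5 and 38.5) and Gata2 (10.1 and 20.02). It was lower in replicate 2 for Gata3 (13.1 and 8.94), Insm1 (11.9 and 4.28), Isl1 (11.0 and 5.09) and Tfap2b (14.5 and 4.75). On this scale all 8 were above 1 TPM in both libraries. The 4 members that were higher have 57.2% to 61.9% GC, and the 4 that were lower 46.9% to 62.0%, with Insm1 at the top of that range. Each of the 8 lay below the median log2 ratio of genes within 1 percentage point of its GC content. As many genes lie below such a median as above it. The gap was least for Isl1 (-1.28 against -0.66) and most for Insm1 (-1.50 against 4.93). This GC content covers all annotated transcripts. With the trend for the transcripts in use removed instead, 6 members were called lower. Isl1 (-0.30) and Gata3 (-0.77) were then not called.

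Genes that act with or beside these factors were read from lists, and within a list genes are ranked by their mean TPM over the 2 libraries, to which replicate 2 contributes more. For every list below, the background over all genes tested is 36.5% higher and 27.8% lower. With the GC trend removed it is 1906 higher and 1807 lower of 14274 genes. Among other lineage factors, 13 of 14 were tested, 0 were called higher, 7 lower and 6 not called, with a median log2 ratio of -1.05. With the GC trend removed 0 were higher and 8 were lower. By that mean the most abundant were Epas1, the hypoxia-responsive factor of chromaffin cells (14.63 and 70.87 TPM), the immediate-early factor Egr1 (9.56 and 60.06 TPM), and Zeb2 (19.31 and 29.83 TPM). Zeb2 was called lower (log2 ratio -1.62), and Epas1 and Egr1 were not called. Without the GC trend Zeb2 was no longer called (-0.81), Egr1 was called lower (-1.98), and Epas1 was again not called. Sox11 was lowest in both libraries (0.02 and 0.06 TPM) and had too few counts to test. The members Gata2 and Hand2 thus sat below Epas1 and Egr1 in each library.

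Of 13 partner proteins, which bind these factors or act as their cofactors, 3 were higher, 3 lower and 7 not called, with a median of -0.35. With the GC trend removed 0 were higher and 6 lower. Hdac2, a deacetylase in the corepressor complex recruited by Insm1 (63.82 and 56.78 TPM), was called lower, at a log2 ratio of -2.00, and was no longer called without the GC trend (-0.41). Lmo4, a LIM-only protein (36.91 and 68.58 TPM), and Ccnd1, cyclin D1 (21.84 and 75.72 TPM), were not called, and both were called lower without the GC trend (-1.14 and -1.55). Zfpm2, a GATA cofactor, had the lowest mean (1.29 and 2.33 TPM) and was not called. Of the 13 partners, 11 reached 1 TPM in both libraries. Tcf3, an E-protein that pairs with Hand proteins (0.54 and 20.23 TPM), and Zfpm1, a GATA cofactor (0 and 6.57 TPM), fell short in replicate 1 and are named here after their values were seen.

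Relatives from the same gene families were mostly near 0. Of 11, 3 had 0 counts in both libraries (Isl2, Tfap2d and Tfap2e), and 4 more had too few counts to test. Gata6, a factor of the adrenal cortex (14.18 and 25.23 TPM), was called lower (log2 ratio -1.01). Gata4 had 0.39 and 1.29 TPM and was called higher (log2 ratio 1.49), which turned to -1.40 without the GC trend. Of the 4 relatives tested, 1 was higher, 1 lower and 2 not called, with a median of -0.64, and all 4 were lower with the GC trend removed. Gata6 was the GATA gene with the most TPM in both libraries, above Gata2 and Gata3.

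Effector genes of chromaffin cells, some of which the factors are known to regulate, covered a wide range of levels. In replicate 1 several of the effector genes lay below Hand2. The 14 genes summed to 923 TPM in replicate 1 and 6524 TPM in replicate 2. Of them 6 were called higher, 1 lower and 7 not called, with a median of 0.71, and with the GC trend removed 3 were higher and 4 lower. By the mean, granule proteins led. Chgb (303.45 and 1854.26 TPM) and Scg2 (395.52 and 992.59 TPM) were not called, and without the GC trend Chgb was called lower. Chga (26.04 and 1699.99 TPM), which in replicate 1 lay below Npy (141.72 TPM), was called higher, with a log2 ratio of 4.18 that fell to 0.50 and was no longer called with the GC trend removed. Ret had the lowest mean (0.18 and 0.54 TPM) and was not called, and without the GC trend it was called lower (-2.17). Pnmt, the enzyme that makes adrenaline, is named after its values were seen: it had 0 counts in replicate 1 and 4291 in replicate 2 (0 and 356.68 TPM), and was called higher with and without the GC trend. Of 13 sympathetic neuron genes, 9 were tested, of which 4 were higher, 2 lower and 3 not called, with a median of 0.34, and with the GC trend removed 3 were higher and 3 lower. Th (6.89 and 363.46 TPM) and Dbh (2.98 and 218.04 TPM), which are on both lists, were called higher with and without the trend. Stmn2 had 1.68 and 7.74 TPM and was not called, although it was called higher without the GC trend (1.68 on the log2 scale), and Slc18a3 had 0 counts in both.

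**Figure D5:**
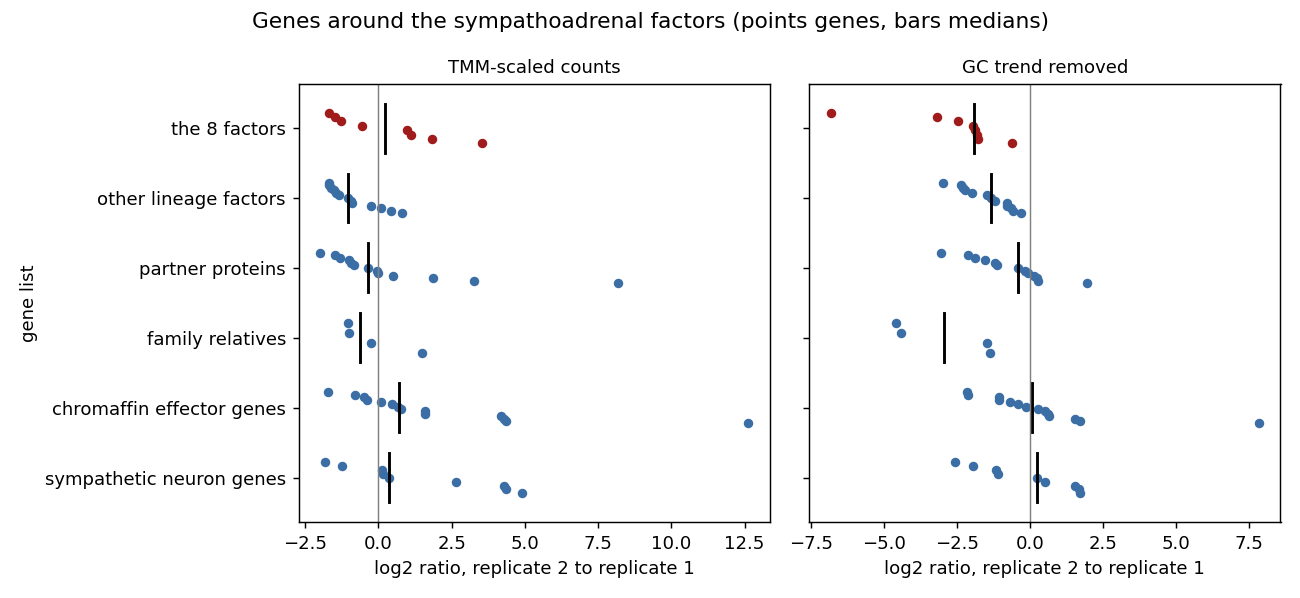
Log2 ratio of replicate 2 to replicate 1 for the 8 factors (red) and the tested genes of the 5 related lists (blue), from TMM-scaled counts on the left and with the GC trend removed on the right; black bars are medians. The median of the 8 factors was 0.21 on the left and -1.92 on the right.

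The gene of these lists most like each member in level was found as the smallest distance in log2(TPM + 0.1) over the 2 libraries, among 62 genes. For Insm1, Isl1 and Tfap2b it was Eya1 (1.95 and 2.91 TPM), at distances of 0.16, 0.11 and 0.37. For Hand2 it was Syp (2.55 and 27.93 TPM) at 0.35, for Gata3 Slc6a2 (1.55 and 5.98 TPM) at 0.55, and for Gata2 and Hand1 Stmn2 (1.68 and 7.74 TPM) at 0.67 and 1.12. For Phox2a the nearest was Tcf3 (0.54 and 20.23 TPM), a GC-rich gene, at 1.38. With 2 libraries, likeness means only that the 2 levels were close.

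Markers of other cells that can hold these factors were present to different degrees. Endothelial markers summed to 108 TPM in replicate 1 and 425 TPM in replicate 2, with Emcn highest (64.83 and 92.77 TPM). Mast cell markers, relevant to Gata2, summed to 4.45 and 12.9 TPM, with Cpa3 highest by the mean (2.36 and 2.42 TPM) and below Cma1 (3.17 TPM) in replicate 2. Those of T cells and innate lymphoid cells, relevant to Gata3, summed to 1.11 and 5.01 TPM over 8 genes. Lck was highest of them by the mean (0.07 and 2.09 TPM) and lay below Il7r (0.43 TPM) in replicate 1. Islet markers, relevant to Isl1 and Insm1, were at or near 0, with 4 of 6 at 0 in both libraries (Ins1, Gcg, Sst and Ppy) and a sum of 0.110 and 0.120 TPM. Kidney and urinary tract markers, relevant to Tfap2b, summed to 0.440 and 0.940 TPM, with Upk1b highest (0.29 and 0.56 TPM) and 5 of 8 at 0 in both (Umod, Slc34a1, Miox, Aqp2 and Upk3a). The 5 remaining sets were Schwann and sustentacular cells (3.37 and 15.0 TPM), stroma and smooth muscle (138 and 418 TPM, led by Dcn), adipocytes (466 and 3272 TPM, led by Fabp4), erythroid cells (49.4 and 2973 TPM, led by Hba-a2) and the cortex, led by Hsd3b1. Each of the 10 sums was higher in replicate 2, as were the TPM of the 8 factors, and the part of endothelium, mast cells and T cells in the levels of Gata2 and Gata3 was not tested.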

How the data were processed

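PolyA RNA of adrenal gland was measured in 2 technical replicate libraries of 1 biological sample (28267651 and 17376660 counts over genes). Per the file headers, the deposited gene and transcript tables hold expected counts, TPM, FPKM, posterior means with interval bounds (treated as a score) and, for transcripts, the percent of the gene's level. Per the deposited notes, the build was mm10 with GENCODE M4. Not given in the sources used here are the aligner, the counting program, its use of strand and the level of the intervals. FPKM in the deposited tables served only as an alternative.

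The 8 members and the gene lists were chosen with earlier results of these data known, as were the 4 promoter motifs and the windows printed. Rows that are no Ensembl gene held 0 counts and were left out. GENCODE M21 (GRCm38), another release than that of the tables, gave coordinates, transcript structures and GC content, and RefSeq (GRCm38.p6) gave promoter windows. Expected counts were rounded, and the 14358 genes with 20 or more counts over both libraries were kept. TMM in edgeR 4.0.16 (R 4.3.3) set the library sizes. The libraries were compared gene by gene with an exact binomial test, two-sided and conditional on the gene's total (scipy 1.17.1, Python 3.11.15). Benjamini-Hochberg adjustment ran over all genes tested, and a call needed both an adjusted p below 0.05 and a 2-fold difference. Log2 ratios carry a prior count of 0.5. Since most genes differed, against the assumption behind TMM, directions are relative to the scaling. Intervals are exact at 95% and cover counting error only, since the reads carry no stated molecular identifiers. Trends with GC content or length were removed with a loess curve. Nuclear copies of mitochondrial genes were found with BLAST 2.17.0 (minimum identity 90%, minimum share of length 50%). The comparison was tested on simulated counts with no GC trend and far fewer changed genes than here, scaled by total counts. That simulation therefore does not show how reliable the calls are in these libraries.

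Named were all 8 members, the 3 most abundant genes and the least abundant gene of each list, the most abundant gene and the markers at 0 of each marker list, transcripts with a share of at least 10%, and the listed gene nearest to each member. Some genes that this rule names are not reported here. Alternatives were DESeq2 size factors (DESeq2 1.42.0), total counts, other count minimums, another prior count, no fold minimum, mitochondrial genes left out, trends removed, and other forms of TPM. The GC content of the transcripts in use, and leaving out the nuclear copies, were added after the data were seen.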

Additional observations from a re-analysis of the deposited data

How the results depend on the processing

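Of the log2 ratios of members under alternatives, 70 kept direction and call, 13 turned, 7 lost and 6 gained a call. All but 1 that turned came from removing GC content. The log2 ratios with gene GC content, GC content of the transcripts in use (added after seeing the data), and GC content with length removed were -1.79, -2.60 and -2.06 for Phox2a, -1.83, -1.79 and -1.96 for Hand1, -3.21, -3.34 and -3.18 for Hand2, and -2.46, -2.56 and -2.10 for Gata2. Those of Gata3 were -1.96, -0.77 and -1.84, not called in the second. In these 3 fits 0, 0 and 0 members were called higher and 7, 6 and 7 lower, and of all genes 1906, 1709 and 1641 were higher and 1807, 1664 and 1834 lower. Total counts turned Gata3 to 0.58 and left 0 members and 569 genes lower. With no fold minimum 6013 genes were lower. The cause of these shifts was not tested. The other settings (DESeq2 size factors, a minimum of 100 counts, mitochondrial genes left out with or without their copies, a prior count of 5) changed no member's call. Members at the level minimum in both libraries numbered 4 at 2 TPM and 6 to 8 under the other alternatives, with 8 without replicate 1 and 6 without replicate 2. Phox2a, with 11 counts in replicate 1, is the member whose ratio depth limits most. No paired analysis was possible because there is only 1 group. Leaving out a library ends the comparison, which has 1 library on each side.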

Other observations

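Insm1 has a single exon, and after its position had been seen the genes of at least 57% GC were described by the number of exons of their leading transcript. Among 77 such protein-coding genes of 1 exon the median log2 ratio of replicate 2 to replicate 1 was 2.36, with quartiles of 0.87 and 4.75. It was 3.49 in 130 genes of 2 exons, 3.91 in 149 genes of 3 exons, 3.84 in 291 genes of 4 or 5 exons, 4.37 in 506 genes of 6 to 10 exons, 4.52 in 451 genes of 11 to 20 exons and 4.48 in 204 genes of 21 or more, so the climb was not steady. Median GC content was 60.5% with 1 exon and 58.6% with 21 or more. With the GC trend removed the medians of the 7 classes were -2.45, -0.76, -0.28, -0.30, 0.20, 0.37 and 0.34. Insm1 (1 exon, -1.50) lay below the lower quartile of its class. Hand2 (2 exons, 1.10) lay below the lower quartile of 2.39 of its class, as did Gata2 (6 exons, 0.98), against a lower quartile of 3.03. Phox2a (3 exons, 3.53) lay between the quartiles of 2.71 and 5.83, and Hand1, also above 57% GC, had 1.84, below the lower quartile of the class of 2 exons, to which its leading transcript of replicate 2 belongs. A split by promoter GC content was looked at as well and is not given, and other features of these genes were not tested.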
